A study of Homo sapiens with 6 samples.

Results

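The forkhead transcription factors are the genes named FOX that share a winged-helix DNA-binding domain. They were taken as all probe sets annotated to a single symbol made of FOX, a letter from A to S and a number, with antisense RNAs and 1 further gene left out. The rule used names only and no measured value. It gave 91 of the 54675 probe sets of the table, for 38 of 19775 genes, and 4 probe sets annotated to several genes with a forkhead symbol among them were not used.

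The study compared mesodermal progenitors with the undifferentiated H9 human embryonic stem cells (hESC) they came from, on 3 one-colour arrays each. The progenitors had been induced in Stemline II medium with BMP4, VEGF, FGF2 and activin A and sorted by flow cytometry on day 3.5, as cells without CD326 (EPCAM) that carried CD56 (NCAM1). All 6 arrays come from H9, an established cell line, and nothing in the labels tells whether a group's 3 samples were grown separately. The p-values therefore measure only how these samples spread, which may be technical. No unsorted cells of that day were analysed here, so the effect of the sort and that of the differentiation cannot be told apart.

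Forkhead proteins bind DNA through their shared domain, and several of them open closed chromatin. The family is known for giving cells a regional identity: FOXA factors in endoderm, FOXF and FOXC factors in mesoderm, and FOXD3 in pluripotent cells and neural crest. Its FOXO branch links insulin and growth factor signalling to stress and cell cycle genes, since AKT kinases phosphorylate FOXO proteins and keep them out of the nucleus.

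The arrays fitted their labels. All 9 mesoderm markers measured, among them TBXT, MESP1 and HAND1, were higher in the progenitors. All 7 hESC markers measured, among them NANOG, SOX2 and EPCAM, were lower. EPCAM and the mesoderm marker NCAM1 were the antigens of the sort, so their directions were selected for and are no independent check. The summed intensity of the hESC markers was 9202 to 9550 on the progenitor arrays and 27370 to 30418 on the hESC arrays. Progenitor array 1 stood apart from the other progenitor arrays in markers of other cell types. The 10 endothelial and blood markers summed to 11055 on it and to 5607 and 5859 on progenitor arrays 2 and 3, against 2159 to 2772 on the hESC arrays. The 9 endoderm markers summed to 3656, 1681 and 1698 on progenitor arrays 1, 2 and 3, against 3324 to 3737 in hESC. The 8 neural crest markers summed to 2552, 1705 and 1691 in the same order, against 1812 to 2092 in hESC, and the 9 neuroectoderm markers to 3291 to 3948 in the progenitors, against 3259 to 3708. Of these 4 lists, TTR of endoderm and HES5 of neuroectoderm had intensities of 10 or less on all progenitor arrays. SOX17 was listed under both endoderm and endothelium and blood, so those lists were not wholly separate. A sum follows its brightest members. Gene by gene, 6 of the 9 endoderm markers were higher in the progenitors (66.7%, against 26.7% of all genes), 2 were lower and 1 was not called. CLDN6, which was among the lower ones, had mean intensities of 370 in the progenitors and 3153 in hESC.

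Each gene is represented by its brightest probe set, and log2 changes are progenitor means minus hESC means of log2(intensity + 16) after quantile normalization. This scale understates the change of dim genes. Intensities are the deposited values. Differences were tested with limma across all genes at an adjusted p under 0.05, and every adjusted p below comes from that fit unless a fit over probe sets is named. In whole samples, fewer cells of a type and less RNA per cell cannot be told apart.

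Of the 38 genes, 10 were higher in the progenitors and 8 were lower, while 20 did not pass the test. Among all genes 47.9% were called, 26.7% as higher and 21.2% as lower, and the forkhead shares of 26.3% and 21.1% were close to these. At least 2-fold increases were found in 7 forkhead genes, 18.4%, where all genes gave 9.39%, and at least 2-fold decreases in 3 genes, 7.89%, where all genes gave 7.22%. The groups did not overlap in 24 of the 38 genes (63.2%), where all genes gave 57.3%. The median log2 change was 0.02 over the 38 genes and 0.04 over all genes. The largest changes lay in a few members: FOXF1, FOXF2, FOXD1 and FOXC2 rose by more than 2 on this log2 scale, and FOXD3, FOXO1 and FOXN3 fell by more than 1.

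**Figure D1:**
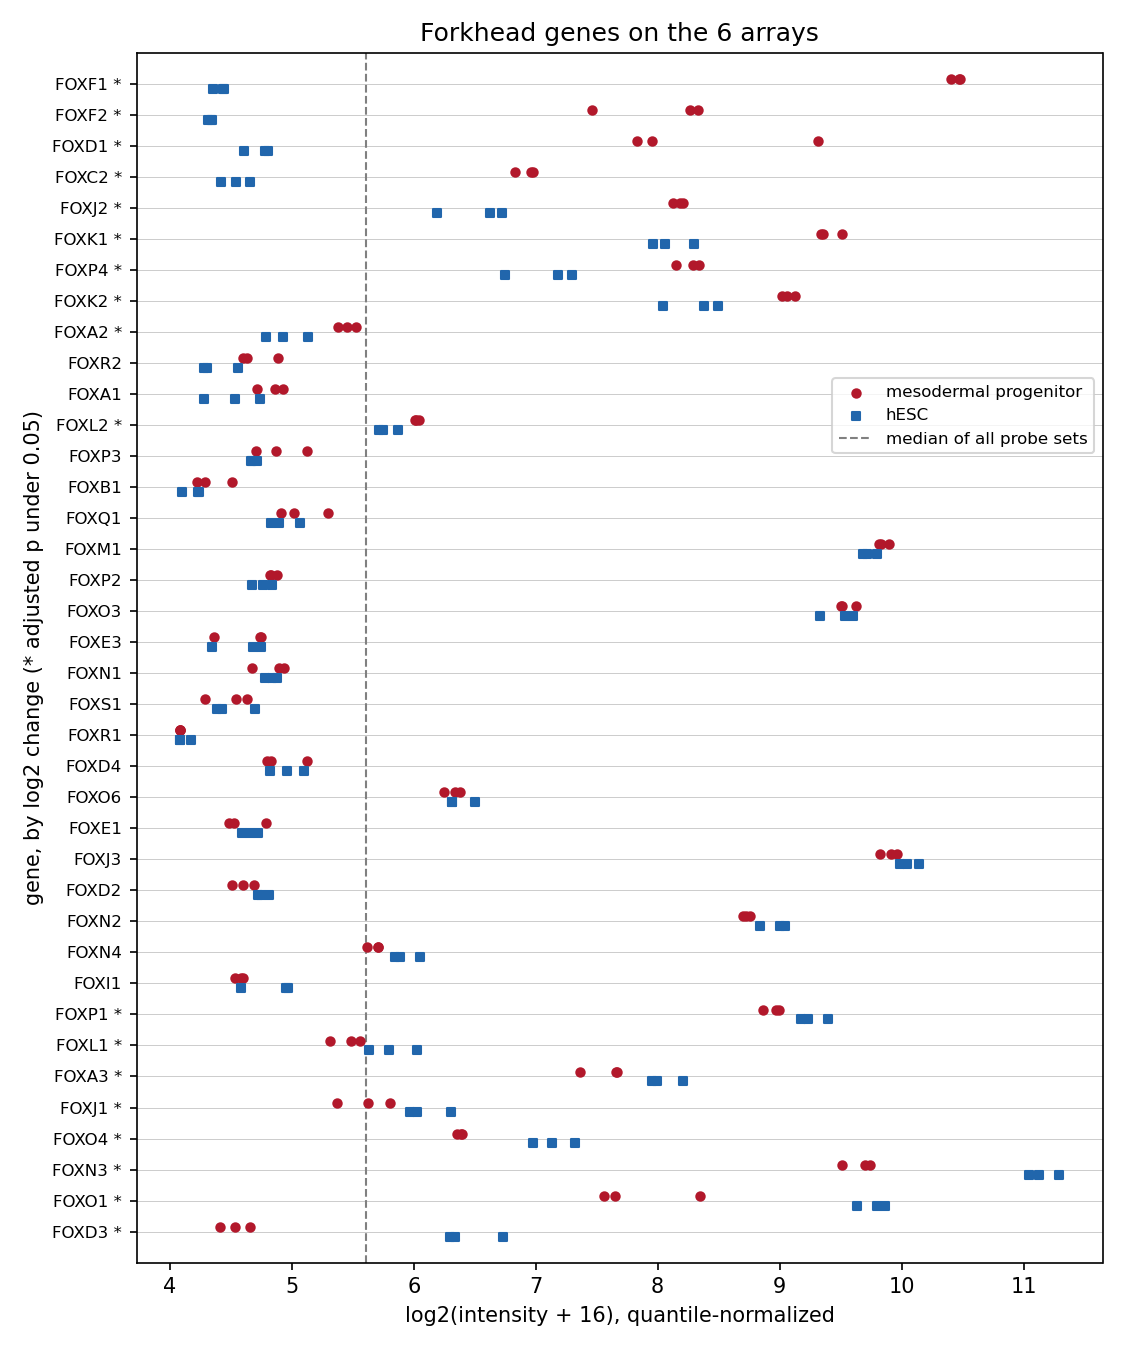
Level of each of the 38 forkhead genes on each array, as log2(intensity + 16) after quantile normalization, with circles for the 3 progenitor arrays and squares for the 3 hESC arrays. Genes run down the page by their log2 change, with 6.04 for FOXF1 at the top and -1.92 for FOXD3 at the bottom, and the dashed line is the median of all probe sets at 5.61.

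The probe sets of 16 genes lay above the median level of all probe sets on each of the 6 arrays, and those of 15 genes lay below it on each. The levels of different probe sets are not amounts of transcript, so these counts only separate bright from dim signals. Of the 15 dim genes only FOXA2 passed the test, and of the 16 bright ones 5 were higher, 5 were lower and 6 did not pass. The other 7 genes crossed the median, among them the 4 with the largest increases. By comparison, 9463 of all 19775 genes passed, and 6858 of 9887 when the brighter 50% of genes were fitted alone. The shares among all genes split in the same way were not computed, so the contrast is not a result about the family.

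The largest changes were in genes grouped here as factors of mesenchyme and later mesoderm. The groups by role were chosen with earlier results of these data known, so counts within them describe and test nothing. Of 5 such genes, FOXF1, FOXF2, FOXC2 and FOXD1 rose and FOXL1 fell. FOXF1, a factor of lateral plate and visceral mesoderm that mouse embryos need for their extraembryonic mesoderm, lies on chromosome 16. Its single probe set had intensities of 1378, 1370 and 1295 on progenitor arrays 1 to 3, against 5.97, 6.04 and 4.54 on hESC arrays 1 to 3. The groups were far apart and the arrays of each group close together. FOXF1 rose by 6.04 (SE 0.08, adjusted p = 3.43e-08). The size depended on the pseudocount because the hESC signal was near the lower end of the scale, with 7.79 at a pseudocount of 1 and 4.39 at 64.

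FOXF2, its close relative in gut and palate mesenchyme and in pericytes, lies on chromosome 6. Intensities were 166, 295 and 306 on the progenitor arrays and 4.01, 4.54 and 4.38 on the hESC arrays. The increase was 3.69 (SE 0.22, adjusted p = 1.1e-05), and 3.95 without progenitor array 1, the lowest of its group. It was 5.57 at a pseudocount of 1 and 2.18 at 64. FOXD1, on chromosome 5, marks the stromal progenitors of the mouse kidney. Its intensities were 624, 215 and 233 on the progenitor arrays, with array 1 as the highest, against 12.6, 9.15 and 11.7 on the hESC arrays. FOXD1 rose by 3.63 (SE 0.37, adjusted p = 0.000149), by 3.14 without progenitor array 1 and by 2.36 at a pseudocount of 64. Its only probe set has a name with a suffix (_s_at), so FOXD1 dropped out when suffixed probe sets were left out.

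Progenitor array 1 thus deviated in opposite directions for FOXD1 and FOXF2. FOXD1 was the 1 forkhead gene of 38 (2.63%) that lay more than 1 log2 unit from the mean of the other progenitor arrays, and 0.905% of all genes did. These deviations went with the higher endothelial, endoderm and neural crest markers of that array given above, and their part in them was not tested.

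**Figure D2:**
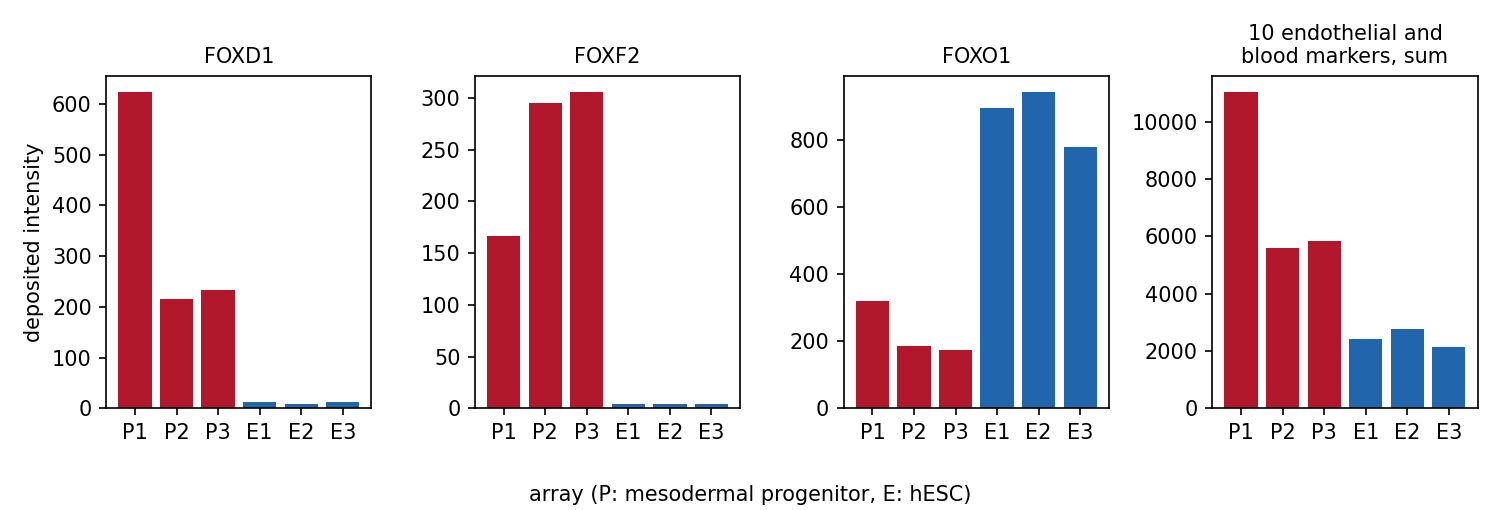
Deposited intensity of FOXD1, FOXF2 and FOXO1 and the summed intensity of 10 endothelial and blood markers on each array, with progenitor arrays P1 to P3 left of hESC arrays E1 to E3. Progenitor array 1 was the highest progenitor array for FOXD1 (624), FOXO1 (321) and the marker sum (11055), and the lowest for FOXF2 (166).

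FOXC2, a factor of paraxial mesoderm and lymphatic vessels, had intensities of 98.5, 107 and 109 on the progenitor arrays and 7.7, 5.78 and 9.39 on the hESC arrays. It rose by 2.38 (SE 0.10, adjusted p = 1.74e-06), by 3.70 at a pseudocount of 1, by 1.25 at 64 and by 1.18 on the mean of its probe sets. A dimmer FOXC2 probe set had 10.5, 2.38 and 2.58 in the progenitors, against 11.7, 3.19 and 3.47 in hESC, and did not pass, at -0.03 (adjusted p = 0.924 in the fit over probe sets). FOXL1, a factor of gut mesenchyme, had intensities of 22.6, 27.2 and 29.2 in the progenitors, against 42.3, 53.6 and 33.9 in hESC, and fell by 0.37 (SE 0.12, adjusted p = 0.0429). That call was lost in 12 of 16 alternatives, among them without any 1 progenitor array (-0.30, -0.39 and -0.42) and without hESC array 1 or 2 (-0.38 and -0.27), and in the fit over probe sets (adjusted p = 0.0558).

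FOXF1, FOXC2 and FOXL1 are neighbours on chromosome 16. In the order of the RefSeq annotation, the measured genes of that stretch were the noncoding RNA FENDRR, FOXF1, MTHFSD, FOXC2 and FOXL1. FENDRR, which starts next to FOXF1 and is known from mouse lateral mesoderm, rose by 0.80 (SE 0.16), with intensities of 50.1, 38.6 and 49.8 in the progenitors, against 20.9, 15.7 and 30.2 in hESC. MTHFSD rose by 0.85 (SE 0.12). The changes along this stretch were thus 0.80, 6.04, 0.85, 2.38 and -0.37, and its 2 outer forkhead genes went opposite ways. On chromosome 6, FOXQ1, the measured neighbour of FOXF2 on one side, did not pass, at 0.15 (SE 0.12), with 22.2, 13.4 and 15.6 in the progenitors, against 18.5, 13.7 and 13.9 in hESC. GMDS, an enzyme of GDP-fucose synthesis that lies on the other side but need not adjoin FOXF2, fell by 0.95 (SE 0.14). FOXC1 was not among the 38 genes, so FOXC2 is the only FOXC gene reported here.

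**Figure D3:**
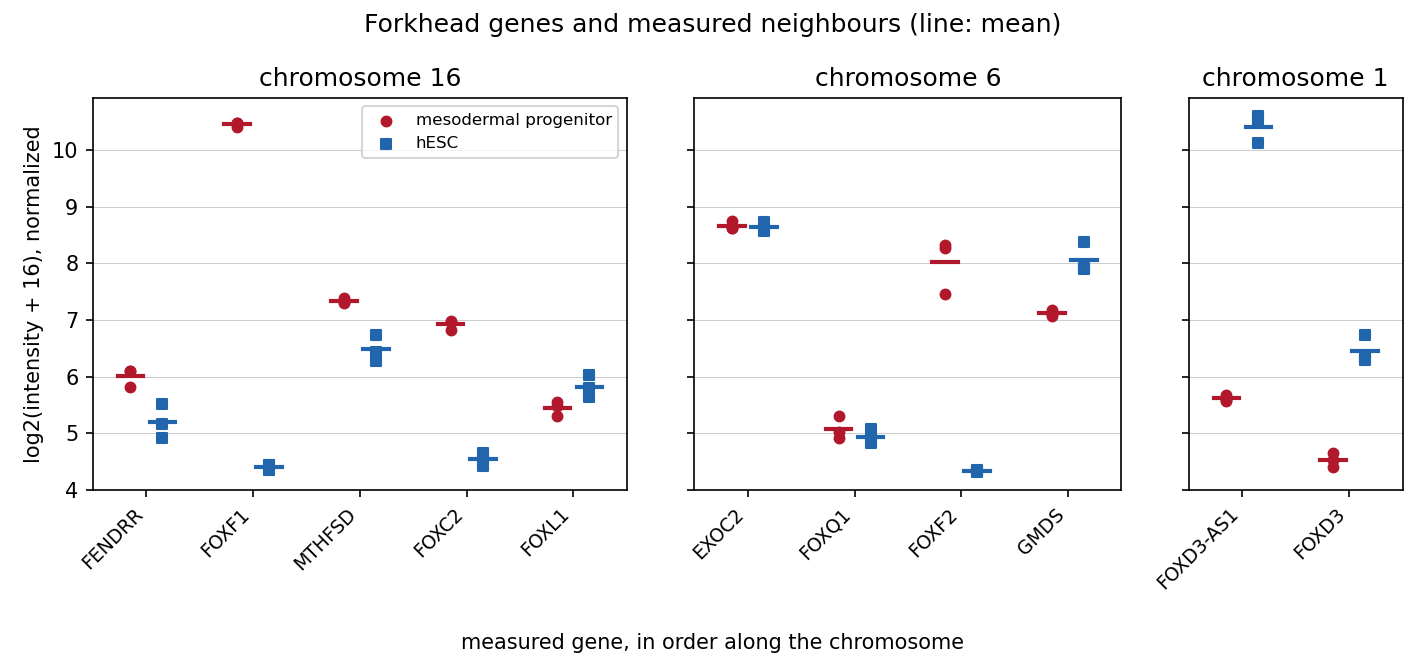
Level of forkhead genes and measured neighbours on chromosomes 16, 6 and 1 as log2(intensity + 16) after normalization, in their order along the chromosome, with 1 point for each array and a line at the mean of 3. FOXF1, FOXC2 and FOXF2 were higher in the progenitors (circles) than in hESC (squares), and FOXD3-AS1 and FOXD3 were lower.

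The sequence before the start of 29 of the 38 genes, with 40 starts, was found in the RefSeq promoter table (GRCh38.p14), which holds 300 bases for each start. The 250 bases before the start are shown for FOXF2 (chr6:1389326-1389575, plus strand) and FOXD1 (chr5:73448778-73449027, minus strand), as increases, and for FOXO1 (chr13:40666642-40666891, minus strand), as a decrease. Capitals mark GC boxes (GGGCGG) and CCAAT boxes (CCAAT) on either strand.
FOXF2: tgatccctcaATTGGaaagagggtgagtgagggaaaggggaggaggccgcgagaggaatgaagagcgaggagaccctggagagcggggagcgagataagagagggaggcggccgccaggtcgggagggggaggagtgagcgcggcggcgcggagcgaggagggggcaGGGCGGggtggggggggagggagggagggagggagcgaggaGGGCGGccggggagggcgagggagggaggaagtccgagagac
FOXD1: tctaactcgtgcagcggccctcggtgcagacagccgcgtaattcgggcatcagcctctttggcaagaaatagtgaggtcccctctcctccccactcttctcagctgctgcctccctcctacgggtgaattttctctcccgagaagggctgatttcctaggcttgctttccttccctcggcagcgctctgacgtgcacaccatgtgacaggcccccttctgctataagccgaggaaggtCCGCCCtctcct
FOXO1: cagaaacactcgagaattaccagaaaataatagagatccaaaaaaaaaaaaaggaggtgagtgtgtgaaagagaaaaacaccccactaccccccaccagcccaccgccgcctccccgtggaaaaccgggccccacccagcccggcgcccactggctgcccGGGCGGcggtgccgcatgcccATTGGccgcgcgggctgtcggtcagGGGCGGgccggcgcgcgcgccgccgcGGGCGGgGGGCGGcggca
G and C made up 70.8% of the bases shown for FOXF2, 58.8% of those for FOXD1 and 67.2% of those for FOXO1. Over the full windows the forkhead promoters were rich in G and C, with a median of 68% and 27.5 CpG pairs, where all 35116 promoters had 58.7% and 14. A GC box was found in 26 of the 40 windows (65%) and in 45% of all promoters, and a CCAAT box in 9 (22.5%), against 34.6%. The forkhead motif GTAAACA, read on both strands, was found in 2 windows (5%), those of FOXO4 and of 1 FOXP1 start, and in 3.42% of all promoters. The TCF/LEF motif CTTTGAT was in 1 window (2.5%), that of FOXR2, against 2.62%, and the TATA box TATAAA in 3 (7.5%), against 11.5%. No motif of these holds another. Such matches describe letters and are not evidence of binding.

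FOXD3, a repressor of pluripotent mouse epiblast and of early neural crest, had the largest decrease among the 38 genes, close to that of FOXO1 (-1.91). The brightest FOXD3 probe set had intensities of 8.87, 6.9 and 4.9 on the progenitor arrays and 67.8, 67.4 and 88.6 on the hESC arrays. FOXD3 fell by 1.92 (SE 0.14, adjusted p = 2.71e-05), by 3.17 at a pseudocount of 1 and by 0.93 at 64. Of its other 2 probe sets, one fell by 0.70 (adjusted p = 0.0184 in the fit over probe sets) and the other differed by -0.34 without passing (adjusted p = 0.103). FOXD3 lies on chromosome 1 beside FOXD3-AS1, a noncoding RNA. RefSeq places a start of FOXD3-AS1 on the opposite strand, 109 bases before that of FOXD3. FOXD3-AS1 fell by 4.79 (SE 0.13), with 33.3, 30.2 and 30.4 in the progenitors, against 1492, 1148 and 1526 in hESC. Both genes of this pair were therefore lower in the progenitors. The 250 bases before FOXD3 (chr1:63322317-63322566, plus strand) are shown with the stretch between both starts in capitals.
FOXD3: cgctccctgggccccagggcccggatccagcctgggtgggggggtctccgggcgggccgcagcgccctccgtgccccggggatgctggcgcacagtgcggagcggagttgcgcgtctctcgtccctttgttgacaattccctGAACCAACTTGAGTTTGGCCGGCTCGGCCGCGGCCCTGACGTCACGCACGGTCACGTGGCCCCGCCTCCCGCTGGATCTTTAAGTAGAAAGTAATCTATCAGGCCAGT
Of 17 measured genes listed as partners of FOXD factors in stem cells and neural crest, 7 rose (41.2%), 7 fell (41.2%) and 3 did not pass, where 26.7% of all genes rose and 21.2% fell (median 0.06, against 0.04 over all genes). MSX1 and SNAI2, factors of early mesoderm and neural crest, rose by 6.99 and 6.21, and TFAP2A, a neural crest factor, by 4.19. SALL4 and PAX3 differed by -0.29 and 0.67 without passing.

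Of the FOXA genes, the pioneer factors of endoderm and liver, FOXA2 rose, FOXA3 fell and FOXA1 did not pass. FOXA2, which also marks the anterior streak and the notochord, had intensities of 24.3, 28.5 and 26.1 in the progenitors, against 15.2, 21.1 and 11.8 in hESC, below the median of all probe sets on every array. It rose by 0.50 (SE 0.11, adjusted p = 0.00724) on this probe set, but not on the mean of its 3 probe sets (0.12, adjusted p = 0.294) or with arrays centred on their gene medians (0.26, adjusted p = 0.122). FOXA1 did not pass, at 0.32 (SE 0.13, adjusted p = 0.0838), but passed on hybridization controls (0.45, adjusted p = 0.0225) and without hESC array 3 (0.43, adjusted p = 0.0268). FOXA3 fell by 0.49 (SE 0.12, adjusted p = 0.0114), with 153, 188 and 188 in the progenitors, against 236, 230 and 273 in hESC. The sign of FOXA3 turned, to 0.04, under scaling by the arrays' hybridization controls. Of 13 genes listed as FOXA partners or targets, 8 rose (61.5%, against 26.7% of all genes), 1 fell and 4 did not pass (median 0.84). GATA6, GATA4 and CER1, which cardiac and streak mesoderm also use, rose by 6.63, 4.89 and 4.58, while APOA1, a liver apolipoprotein, and SHH differed by -0.47 and -0.24 without passing.

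Within the FOXO branch, FOXO1 and FOXO4 fell and FOXO3 and FOXO6 did not pass. FOXO1, reported to be needed for pluripotency in human embryonic stem cells, lies on chromosome 13. Its intensities were 321, 186 and 173 on the progenitor arrays, again with array 1 as the highest, against 897, 946 and 780 on the hESC arrays. The decrease was -1.91 (SE 0.21, adjusted p = 0.000209), and -2.17 without progenitor array 1. A second probe set gave -1.86, and the third, with 12.2, 19.4 and 14.1 in the progenitors, against 12.4, 8.67 and 19.9 in hESC, did not pass, at 0.15. FOXO4, on chromosome X, had 66.6, 65.8 and 63.2 in the progenitors, against 125, 114 and 140 in hESC. FOXO4 fell by 0.77 (SE 0.10, adjusted p = 0.000684) and missed the threshold with scaling on hybridization controls (-0.36, adjusted p = 0.0587).

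FOXO3 differed by 0.06 (SE 0.10, adjusted p = 0.686) on its brightest probe set, with 770, 693 and 701 in the progenitors, against 736, 780 and 630 in hESC. Its groups overlapped. With scaling on hybridization controls it passed as higher (0.53, adjusted p = 0.00248). Of the other FOXO3 probe sets, one rose by 0.57, with 162, 111 and 111 in the progenitors, against 70.9, 84.5 and 89.3 in hESC. Another fell by 0.50, with 326, 262 and 252, against 377, 464 and 348, so the direction of FOXO3 depends on the probe set. FOXO6 was at 65.7, 63.1 and 57.5 in the progenitors and 66.4, 79.5 and 62.6 in hESC and differed by -0.05 (SE 0.09).

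Of 23 measured FOXO target genes, 11 rose (47.8%), 4 fell (17.4%) and 8 did not pass (median 0.40), where 26.7% of all genes rose and 21.2% fell. CCNG2, an atypical cyclin that slows the cell cycle, rose by 2.75 and GADD45A, a growth arrest gene, by 2.47, whereas the receptor ERBB3 fell by 2.56. SESN1, a stress protein, and SOD2, a mitochondrial enzyme against superoxide, did not pass, at 0.30 and 0.40. Of 19 measured kinases, phosphatases and cofactors upstream of FOXO proteins, 5 rose (26.3%), 4 fell (21.1%) and 10 did not pass (median 0.01), shares close to those of all genes. PIK3R1, a regulatory subunit of PI3-kinase, rose by 2.40 and the kinase STK3 by 1.60, while the insulin receptor INSR fell by 1.12. The nuclear exporter XPO1 and the 14-3-3 protein YWHAE differed by -0.13 and 0.27 without passing. Phosphorylation and location of FOXO proteins were not measured.

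All 9 widely expressed forkhead genes lay above the median of all probe sets on every array. Of these, FOXJ2, FOXK1, FOXP4 and FOXK2 rose, FOXN3 and FOXP1 fell, and FOXM1, FOXJ3 and FOXN2 did not pass. FOXN3, a repressor linked to the DNA damage checkpoint, had intensities of 717, 797 and 817 in the progenitors, against 2280, 2620 and 2086 in hESC. It fell by 1.50 (SE 0.10, adjusted p = 2.29e-05). Of its 8 probe sets 7 fell in the fit over probe sets, with changes of -0.56 to -1.58, and the other differed by 0.15 without passing.

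FOXJ2 had intensities of 285, 265 and 282 in the progenitors, against 85.1, 61.8 and 87.6 in hESC, and rose by 1.66 (SE 0.14, adjusted p = 6.83e-05). FOXK1 and FOXK2 are repressors of autophagy genes. FOXK1 was at 716, 620 and 628 in the progenitors and at 296, 249 and 225 in hESC, an increase of 1.29 (SE 0.11, adjusted p = 7.39e-05). FOXK2 was at 511, 513 and 536 in the progenitors and at 315, 245 and 338 in hESC, an increase of 0.77 (SE 0.13, adjusted p = 0.00185). On the mean of all their probe sets these values were 0.26 (adjusted p = 0.0253) and 0.11 (adjusted p = 0.321). FOXK2 rose by 1.28 on hybridization controls and by 0.36 with suffixed probe sets left out. FOXP4, a factor of foregut and lung epithelium that pairs with other FOXP proteins, was at 306, 271 and 308 in the progenitors and at 141, 95.4 and 126 in hESC, and rose by 1.18 (SE 0.15, adjusted p = 0.000487). For each of FOXJ2, FOXK1, FOXK2 and FOXP4 the lowest progenitor array lay above the highest hESC array. The groups did not overlap in 57.3% of all genes. On the normalized levels they did not overlap for FOXJ3, FOXM1 and FOXN2 either, which did not pass.

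FOXP1, known for a splice form of human embryonic stem cells, had 8 probe sets. On the brightest, intensities were 460, 490 and 482 in the progenitors, against 592, 672 and 559 in hESC, a decrease of 0.32 on the log2 scale (SE 0.09, adjusted p = 0.0238). This small difference missed the threshold without any 1 progenitor array (-0.29, -0.35 and -0.34) and without hESC array 1 or 2 (-0.34 and -0.26), and its sign turned, to 0.18, with scaling on hybridization controls. A pair of dimmer FOXP1 probe sets changed more. The first had 27.4, 33.4 and 22.5 in the progenitors, against 164, 201 and 94.2 in hESC, with a change of -1.87 (SE 0.24). The second had 11.3, 18.7 and 17.3, against 80.4, 120 and 62.2, with a change of -1.62 (SE 0.20). Another fell by 0.46, and the remaining 4 did not pass, at 0.04 to 0.22. Which exons these probe sets match was not tested.

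FOXM1, the factor of the genes for entry into mitosis, stood at 930, 872 and 859 in the progenitors and 838, 831 and 875 in hESC. It differed by 0.12 (SE 0.08, adjusted p = 0.283), and an increase of 0.58 passed under scaling by hybridization controls. Of its 20 listed target genes 10 rose (50%, against 26.7% of all genes), 3 fell (15%, against 21.2%) and 7 did not pass (median 0.36). The kinase NEK2 rose by 1.20, CDK1 by 0.90 and the centromere histone CENPA by 0.87, and cyclin CCNB1 and the kinase AURKB differed by 0.07 and -0.02 without passing. FOXJ3 was at 884, 957 and 924 in the progenitors and at 1067, 1159 and 1002 in hESC and did not pass, at -0.16 (SE 0.09, adjusted p = 0.183). FOXN2 was at 409, 413 and 405 in the progenitors and at 497, 442 and 507 in hESC. Its difference was -0.23 (SE 0.09, adjusted p = 0.0641), and it passed in 4 alternatives: without hESC array 2 (-0.29, adjusted p = 0.0241), at a pseudocount of 64 (-0.21, adjusted p = 0.0271), with the dimmer features left out (adjusted p = 0.0307) and with centring (-0.37, adjusted p = 0.00826). FOXJ3 also passed with centring (-0.37, adjusted p = 0.0152). For both FOXJ3 and FOXN2 a dim second probe set rose, by 0.34 and 0.28.

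The probe sets of a gene often differed in call. Of the 91 probe sets, 36 (39.6%) passed in the fit over probe sets, 15 higher and 21 lower, where all 54613 tested gave 40.2%, with 20.3% higher and 20% lower. At least 2-fold changes were called in 7 higher (7.69%) and 10 lower probe sets (11%), against 6.79% and 7.94% of all, and the groups did not overlap in 47 (51.6%), against 51.2%. Several probe sets were available for 20 genes. In 3 of these, FOXK1, FOXK2 and FOXO3, probe sets passed in both directions. The FOXK1 probe set that fell, by 0.41, was dim, at 6.48, 1.32 and 1.00 in the progenitors, against 8.21, 10.6 and 9.52 in hESC. The FOXK2 probe set that fell, by 1.26, had 25.7, 21.4 and 24.1 in the progenitors, against 91.6, 96.0 and 67.3 in hESC, while 4 FOXK2 probe sets rose, by 0.30 to 0.77, and 2 did not pass. When the probe sets of each gene were averaged, 9 genes were higher and 7 lower, and 9154 of all 19775 genes were called. FOXA2, FOXK2 and FOXL1 (-0.27, adjusted p = 0.0591) lost their call there, and FOXR2 (0.33, adjusted p = 0.0498) gained one. The decreases of FOXD3, FOXO1 and FOXN3 were then -0.99, -1.21 and -0.95, and the increase of FOXJ2 was 1.04.

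**Figure D4:**
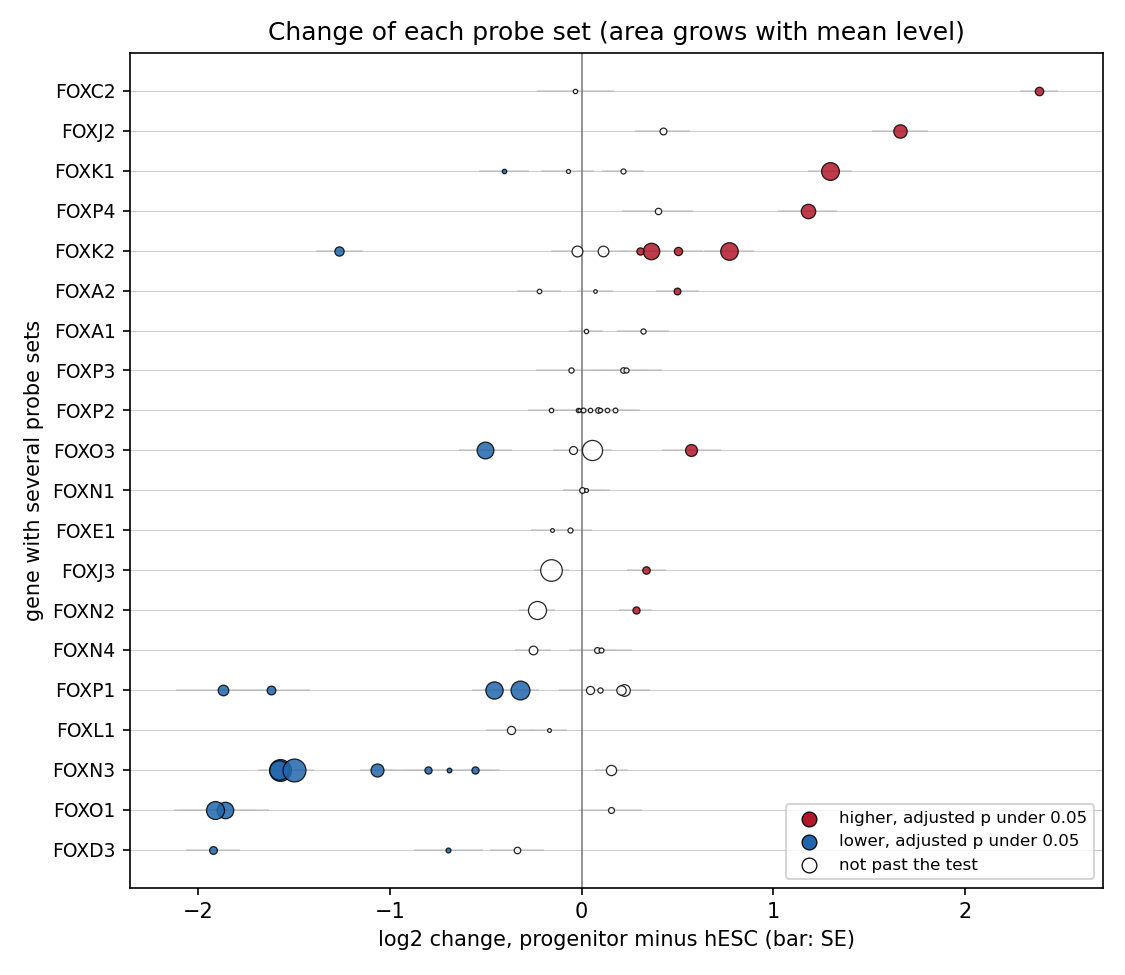
Log2 change of every probe set of the 20 forkhead genes with several, progenitor minus hESC, with bars for the SE and a dot area that grows with the mean level. Filled dots passed the test over all probe sets, such as 7 of 8 for FOXN3, and FOXK1, FOXK2 and FOXO3 have filled dots on both sides of 0.

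The 16 genes known from other tissues were mostly dim, and 14 of them did not pass, where 10312 of all 19775 genes did not. The 14 were FOXB1, FOXD2, FOXD4, FOXE1, FOXE3, FOXI1, FOXN1, FOXN4, FOXP2, FOXP3, FOXQ1, FOXR1, FOXR2 and FOXS1, with log2 changes of -0.26 to 0.33. They include the thyroid factor FOXE1, the lens factor FOXE3, the thymus factor FOXN1, the regulatory T cell factor FOXP3 and FOXP2, known for its role in speech. All 9 FOXP2 probe sets lay between 1.00 and 13.3 on the 6 arrays, and these did not pass. FOXD4 has near-identical copies in the genome, so its signal, 11.9, 11.2 and 18.0 in the progenitors, against 19.2, 16.7 and 12.4 in hESC, cannot be assigned to it with certainty. FOXN4, at -0.25 (adjusted p = 0.0518), passed in 4 alternatives: without hESC array 2 (-0.29, adjusted p = 0.0434), with a pseudocount of 1 (-0.35, adjusted p = 0.0455), without normalization (-0.36, adjusted p = 0.00806) and with arrays centred on their medians (-0.51, adjusted p = 0.00171). FOXD2 (-0.36) and FOXI1 (-0.46) also passed with centring, FOXI1 without hESC array 2 (-0.38), FOXP3 (0.37) and FOXR2 (0.45) on hybridization controls, and FOXR2 without hESC array 1 (0.41).

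Only FOXJ1 and FOXL2 passed among the 16. FOXJ1, which switches on the genes of motile cilia, fell by 0.50 (SE 0.14, adjusted p = 0.0223), with 24.1, 31.8 and 37.8 in the progenitors, against 66.0, 53.2 and 46.8 in hESC. It missed the threshold without progenitor array 1 (-0.38, adjusted p = 0.0580), progenitor array 2 (-0.51, adjusted p = 0.0544) or hESC array 1 (-0.40, adjusted p = 0.0756), and with scaling on hybridization controls (-0.21, adjusted p = 0.280). Of 19 measured cilia genes downstream of FOXJ1, 5 rose (26.3%) and 14 did not pass (median 0.03), where 26.7% of all genes rose. TEKT2, a protein of the ciliary axoneme, rose by 0.78, SPAG17 by 0.67 and RSPH9 by 0.61, and RFX2 and CCDC40 differed by 0.08 and -0.16 without passing. FOXL2, a factor of ovarian granulosa cells, had 46.4, 46.5 and 47.5 in the progenitors, against 45.2, 41.4 and 36.9 in hESC. Its increase of 0.24 (SE 0.08, adjusted p = 0.0417) was lost in 10 of 16 alternatives and turned to -0.01 in 1 more, the centring of arrays on their gene medians. It was not called without any 1 progenitor array (0.25, 0.25 and 0.23) or without hESC array 2 or 3 (0.23 and 0.21).

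Further listed genes are given by count, to be read against the 26.7% of all genes that rose and the 21.2% that fell. Of 17 measured genes of the FOXF and hedgehog pathway in mesenchyme 6 rose (35.3%), 2 fell (11.8%) and 9 did not pass (median 0.02). BMP4, a ligand that was also added to the medium as protein, rose by 6.11, the growth factor HGF by 6.08 and MYOCD, a smooth muscle coactivator, by 2.11, while NOTCH2 and SMO differed by -0.23 and -0.23 without passing. Of 15 genes placed downstream of FOXC factors in mouse mesoderm and vessels 7 rose (46.7%), 1 fell (6.67%) and 7 did not pass (median 0.13). The coreceptor NRP1 rose by 4.89, the repressor HEY2 by 2.62 and the pericyte receptor PDGFRB by 2.46, and ITGB3 and PAX1 differed by 0.05 and -0.30 without passing. Of 11 measured corepressors and partners of FOXP and FOXN factors 8 rose (72.7%), 2 fell (18.2%) and 1 did not pass (median 0.31). NFATC1 rose by 1.95 and TBR1 by 0.54, CTBP2 fell by 0.63, and NFATC2 did not pass, at 0.19. TBR1 was dim, with mean intensities of 16.4 in the progenitors and 7.55 in hESC. Of 11 noncoding RNAs named for or next to forkhead genes, FENDRR and FOXP4-AS1 (0.52) rose, FOXD3-AS1 fell and 8 did not pass (median 0.12), among them FOXN3-AS1 and FOXCUT at 0.01 and 0.12. FOXP4-AS1 was dim too, with mean intensities of 17.6 in the progenitors and 8.5 in hESC.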

How the data were processed

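Deposited values are intensities on a linear scale, as the values show, between 0.63 and 12339, and 2.15% of them equal 1. Per the labels' protocols the authors made biotinylated cRNA with an amplification kit. How probes were summarised, background-corrected or scaled is not given in the sources used here. The number of arrays limits the precision.

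Values were converted to log2(intensity + 16) and quantile-normalized, since array medians spanned 0.15 on this scale. Symbols were updated through the gene identifier, 62 array controls were left out, and the brightest probe set annotated to a gene alone stood for it. Tests were lmFit and eBayes of limma 3.58.1 (R 4.3.3), two-sided, with Benjamini-Hochberg adjustment over 19775 genes or 54613 probe sets. The fit was tested on simulated data. Members, gene lists, groups by role and alternatives were chosen with earlier results of these data known. Named list genes were the 3 largest called changes and the 2 brightest members that were not called. Members called with a change of 1 or more, the brightest, and those with discordant probe sets are given in full. Python 3.11.15 with matplotlib 3.10.9 made the figures.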

Additional observations from a re-analysis of the deposited data

How the results depend on the processing

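Alternatives changed one choice at a time. Over all of them, 6858 to 11093 genes were called, against 9463 as reported. With the dimmer 50% of features left out, 13 forkhead genes remained to be tested, and 10 were called, 5 higher and 5 lower. Of all genes in that setting, 6858 of 9887 were called. With suffixed probe sets left out, 33 forkhead genes remained and 15 were called, where 7557 of 16788 genes were. FOXD1, FOXO1, FOXM1, FOXJ3 and FOXO6 have suffixed probe sets only and could not be checked in that way. Scaling set the balance of directions. The median change of all genes was -0.15 with each array centred on its gene median and 0.32 with arrays scaled on hybridization controls, against 0.04, and 37.3% and 81.9% of called genes were higher, against 55.8%. With centring, 8 forkhead genes were higher and 13 lower, and 8 of the 91 probe sets were higher and 31 lower. With scaling on hybridization controls, 15 genes were higher and 3 lower, and 27 probe sets were higher and 12 lower. In these 2 settings 21 and 18 of the 38 forkhead genes were called, and 10262 and 11093 of all 19775 genes. Leaving out 1 array at a time gave 5 to 9 lower genes of 38 and 13 to 21 lower probe sets of 91. There were 5 lower genes without progenitor array 1, progenitor array 2 or hESC array 1. There were 13 lower probe sets without progenitor array 2 or hESC array 1. In the same fits 7905 to 9338 of all 19775 genes were called, against 9463, and 54.7% to 56.6% of called genes were higher. Calls among all probe sets were not counted for the alternatives, so the probe set counts have no such measure. The cause of these shifts was not tested.

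The sign of a called gene turned in 3 cases, FOXA3 (0.037) and FOXP1 (0.18) on hybridization controls and FOXL2 (-0.0089) on centring. Genes not called turned sign on hybridization controls for FOXD4 (0.14), FOXE1 (0.073), FOXJ3 (0.30), FOXN2 (0.28), FOXN4 (0.017), FOXO6 (0.30), FOXR1 (0.0069) and FOXS1 (0.099). On centring FOXB1 (-0.014), FOXE3 (-0.17), FOXM1 (-0.085), FOXN1 (-0.21), FOXO3 (-0.13), FOXP2 (-0.13) and FOXQ1 (-0.076) did. Without normalization FOXE3 was at -0.023 and FOXN1 at -0.063, and with a pseudocount of 1 FOXN1 was at -0.0021. On the mean of probe sets FOXJ3 was at 0.089 and FOXN2 at 0.025, and with progenitor arrays 2 and 3 averaged FOXS1 was at 0.020. Without 1 array, FOXD4 ranged over -0.15 to 0.026, FOXE3 over -0.097 to 0.16, FOXN1 over -0.046 to 0.083, FOXO3 over -0.021 to 0.11, FOXO6 over -0.083 to 0.013 and FOXS1 over -0.087 to 0.085. The cause was not tested.

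Same-numbered arrays did not visibly deviate together, with correlations of deviations from the group means of -0.02, 0.03 and -0.04. Such small values cannot tell whether same-numbered samples were prepared together. With a replicate block 16 forkhead genes were called, 9 higher and 7 lower, where 8880 of all 19775 genes were called. FOXL1 (adjusted p = 0.0597) and FOXL2 (adjusted p = 0.103) missed the threshold of limma's test there. Dim signals limit the small differences, and 19 of 546 forkhead values equal 1.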
